A study of Mus musculus with 10 samples.

Results

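The sites described are stretches of open chromatin whose ATAC-seq signal was higher in Th17 cells cultured with acetate, with or without pyruvate dehydrogenase. ATAC-seq reads openness as the number of sequenced fragments that a transposase cuts from a site. Each library was divided by its own median over all sites, so that a relative signal of 1 is that of the library's median site. A nuclear site was kept when its lowest value among the 4 acetate libraries was above its highest value among the 6 untreated libraries. This kept 3207 of 39655 nuclear sites, 8.09%. The same rule turned round, with every acetate library below every untreated one, kept 3678 sites (9.27%), which serve below for comparison. The acetate values chose the sites, so every difference between acetate and untreated libraries at them is a description and was not tested.

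All libraries came from naive CD4+ T cells of spleen and lymph nodes from mice with floxed pyruvate dehydrogenase (PDHfl/fl), grown for 3 days with plate-bound anti-CD3 at 5 μg/mL, anti-CD28 at 1 μg/mL, IL-6 at 30 ng/mL, TGFβ at 2 ng/mL and anti-IFNγ at 5 μg/mL. The knockout (KO) cells carried CD4 Cre, which deletes the floxed gene in T cells, and the control (WT) cells had the floxed alleles without Cre. There were 3 KO and 3 WT libraries without acetate, and 2 KO and 2 WT libraries from cells that differentiated in 10 mM sodium acetate. The labels give neither the age of the mice nor the subunit gene that was floxed, no site signal checks the deletion, and the sample titles spell the gene PHD. Whether replicates are separate animals is not labelled, and p-values then measure only how far these libraries spread.

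Pyruvate dehydrogenase makes acetyl-CoA from pyruvate inside mitochondria, and the carbon leaves as citrate, which ATP citrate lyase splits into cytosolic acetyl-CoA. Acetate is the other main source: acetyl-CoA synthetases join it to coenzyme A in the cytosol and nucleus. Acetyl-CoA supplies the acetyl groups of histones, and acetylated histones mark open enhancers and promoters. In activated T cells, enhancers and promoters of cytokine and activation genes are bound by AP-1, NFAT and NF-κB factors downstream of the T cell receptor, and in Th17 cells by BATF with JUN proteins, RORγt and STAT3 as well.

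Column names carry the prefix ATAC2 in the 4 acetate libraries and in WT untreated 4, and the prefix ATAC1 in the remaining 5 untreated libraries. The columns WT untreated 4 and KO acetate 3 carry a number that no sample title lists and were placed by their group. What the prefix stands for is unknown. All acetate libraries share the prefix ATAC2, and in KO acetate and prefix cannot be told apart. In WT the library untreated 4 shares the prefix of the acetate libraries, and values against it stand beside the results. Each library had between 3500172 and 13356560 reads in sites, and the median site of the set held 50 to 235 reads per library, which sets the counting error. The share of reads in sites that fell on the mitochondrial sites was 1.18 to 2.01% in the untreated KO libraries and 0.201 to 0.658% in the other 7.

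Few of these sites lay at gene starts. Of the 3207 sites, 106 covered at least 100 bases of 117 promoter windows (250 bases before to 50 bases after a gene's start, RefSeq, GRCm38.p6), and their letters are the ones that could be read here. The 7 letters TGANTCA, bound by AP-1 dimers and the same on both strands, were in 23.1% of these 117 windows. They were in 4.98% of the 6588 windows that any site covered, in 7.84% of the 319 windows of the sites lower with acetate and in 7.81% of all 32817 windows. Counting only the bases that a site and a window share, the letters were at 22 of 106 sites higher with acetate (20.8%), 15 of 276 sites lower with acetate (5.43%) and 204 of 5574 sites of any kind (3.66%), and the median GC content of these bases was 61.8, 54.5 and 65.2%. In the following stretches, each the part of a site that lies before the start of the named gene, the AP-1 letters are in capitals. The first 6 were picked, after their values were seen, as sites at the starts of protein-coding genes that hold the letters, with larger and smaller acetate differences. The last pair, Klk1b9 and Il3, had the largest acetate differences among the stretches that could be printed and hold no copy.
Rnf183 (chr4:62434641-62434798, minus strand): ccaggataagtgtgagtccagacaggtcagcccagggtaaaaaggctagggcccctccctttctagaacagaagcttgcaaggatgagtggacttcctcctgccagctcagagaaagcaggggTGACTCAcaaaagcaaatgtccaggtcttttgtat
Plaur (chr7:24462377-24462482, plus strand): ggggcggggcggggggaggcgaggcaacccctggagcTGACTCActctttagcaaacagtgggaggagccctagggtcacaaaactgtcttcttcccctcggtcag
Upp1 (chr11:9117861-9118102, plus strand): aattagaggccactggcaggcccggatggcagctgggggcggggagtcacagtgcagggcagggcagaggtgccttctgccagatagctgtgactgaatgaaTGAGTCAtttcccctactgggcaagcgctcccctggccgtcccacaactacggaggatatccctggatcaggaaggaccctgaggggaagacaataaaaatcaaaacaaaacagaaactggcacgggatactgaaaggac
Gzmb (chr14:56262335-56262469, minus strand): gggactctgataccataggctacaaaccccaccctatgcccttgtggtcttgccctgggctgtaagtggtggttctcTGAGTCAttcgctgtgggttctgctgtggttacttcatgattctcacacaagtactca
Osgin1 (chr8:119437000-119437146, plus strand): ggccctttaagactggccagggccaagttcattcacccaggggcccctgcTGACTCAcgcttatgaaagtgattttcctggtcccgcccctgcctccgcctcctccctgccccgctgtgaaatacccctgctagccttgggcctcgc
F3 (chr3:121723332-121723532, plus strand): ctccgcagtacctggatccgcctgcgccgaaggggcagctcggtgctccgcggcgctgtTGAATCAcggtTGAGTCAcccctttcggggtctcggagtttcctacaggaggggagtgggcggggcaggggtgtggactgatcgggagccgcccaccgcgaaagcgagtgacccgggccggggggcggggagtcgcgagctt
Klk1b9 (chr7:43975857-43976057, plus strand): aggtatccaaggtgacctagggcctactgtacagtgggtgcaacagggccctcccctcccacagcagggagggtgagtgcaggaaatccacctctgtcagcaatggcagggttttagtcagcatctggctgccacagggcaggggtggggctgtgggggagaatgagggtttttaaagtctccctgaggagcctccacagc
Il3 (chr11:54267293-54267493, minus strand): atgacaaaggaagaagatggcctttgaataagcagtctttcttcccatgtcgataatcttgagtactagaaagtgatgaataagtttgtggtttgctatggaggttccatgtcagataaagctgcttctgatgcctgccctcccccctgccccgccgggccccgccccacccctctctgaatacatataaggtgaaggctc

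Plaur encodes the urokinase receptor, Upp1 a uridine phosphorylase, Gzmb the cytotoxic protease granzyme B, Osgin1 an oxidative stress-induced growth inhibitor and F3 tissue factor, which starts blood clotting. At the Gzmb start the relative signal was 1.52, 1.88 and 1.68 in untreated KO, 2.71, 2.94 and 2.83 in untreated WT, 3.45 and 3.32 in KO with acetate and 3.05 and 3.49 in WT with acetate. The untreated KO libraries were the lowest there, and the untreated WT libraries lay close under the acetate libraries. At the Plaur start it was 0.723, 0.723 and 0.606 in untreated KO, 1.08, 1.04 and 1.35 in untreated WT, 1.51 and 1.49 in KO with acetate and 1.82 and 1.73 in WT with acetate. The untreated groups did not overlap each other there either, with KO below WT. The Rnf183 start, a weak site near an E3 ubiquitin ligase gene, had 0.0843, 0.109 and 0.121 in untreated KO, 0.183, 0.206 and 0.122 in untreated WT, 0.351 and 0.330 in KO with acetate and 0.368 and 0.365 in WT with acetate, with 11 to 32 reads in the untreated and 21 to 85 in the acetate libraries. F3, with 2 copies of the letters, had 1.29, 1.28 and 1.29 in untreated KO, 1.52, 1.18 and 1.47 in untreated WT, 1.93 and 1.83 in KO with acetate and 2.18 and 1.64 in WT with acetate, and its untreated KO and WT libraries overlapped.

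Of the 14 short motifs searched in the windows on both strands, AP-1 stood furthest above the windows of any site. The ROR half-site letters AGGTCA were in 22.2% of the 117 windows against 11.8% of the 6588, and the ETS letters CCGGAA, common at active promoters, in 11.97% against 35.2%. NFAT letters (GGAAA) were in 53.0% against 57.7%, RUNX letters (TGNGGT) in 45.3% against 42.9%, STAT letters (TTCNNNGAA) in 2.56% against 6.75% and KLF-SP letters (GGGCGG) in 62.4% against 69.7%. The other window sets lay closer for ROR and ETS. ROR letters were in 16.3% of all 32817 windows and 14.1% of those of the sites lower with acetate. ETS letters were in 14.9 and 28.5% of them. None of these letter strings contains the AP-1 string, though neighbouring copies can overlap by a few bases. A match is only a string of letters, and no binding was measured. Sites with and without AP-1 letters differed little in the acetate difference itself: the median fold was 1.498 at the 22 sites with them and 1.57 at the 84 without. The letters of the sites outside the windows were not analysed here.

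In the untreated KO libraries the median relative signal over the 3207 sites was 0.488, 0.525 and 0.505. In the untreated WT libraries it was 0.621, 0.665 and 0.639. With acetate it was 1.01 and 0.968 in KO and 1.00 and 1.01 in WT. The sites therefore stood below the library's median site without acetate, further below it in KO, and at the level of the median site with acetate in either genotype. The sites lower with acetate behaved otherwise: their medians were 1.40 to 1.44 in untreated KO and 1.27 to 1.42 in untreated WT, without the gap between the genotypes, and 0.877 to 0.916 with acetate. The rule that chose them makes sites that are low in either untreated group unlikely to qualify, so this comparison is a description.

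**Figure D1:**
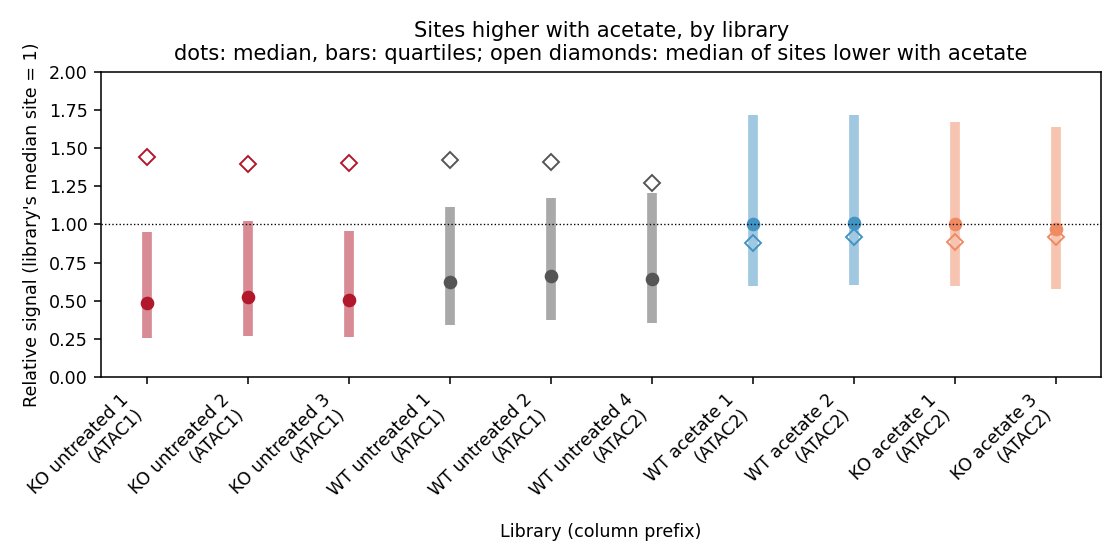
Relative signal (library's median site = 1) in each of the 10 libraries. Dots and bars are the median and quartiles of the 3207 sites higher with acetate, and open diamonds are the medians of the 3678 sites lower with acetate. The dots lie near 0.5 in untreated KO, at 0.621 to 0.665 in untreated WT and near 1 in the 4 acetate libraries.

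The median fold of acetate over untreated was 1.88 in KO and 1.52 in WT, as log2 differences 0.91 and 0.61, from means of log2(value + 1). Over all sites those medians were 0.01 and -0.03. Averaged over the genotypes, the fold had a median of 1.69 and a highest value of 4.97, and 862 sites reached at least 2. Since the rule used these contrasts, their calls are given with nothing read from them: 2656 of the sites were called higher in KO (limma, Benjamini-Hochberg adjusted p under 0.05; 13.7% of all sites) and 1019 in WT (3.68% of all sites). The rule lets no site of the set be below untreated in either genotype. Of all sites, 15.1% in KO and 4.24% in WT were called lower. The gap between the groups was mostly narrow. The ratio of the lowest acetate to the highest untreated value had a median of 1.12, was 1.2 or more at 1056 and 2 or more at 25. The highest untreated value was in WT untreated 4 at 1222 sites (38.1%) and in WT untreated 2 at 1185 (36.95%), but in KO untreated 1, 2 and 3 at 51, 180 and 110. The lowest acetate value was most often in KO acetate 3, at 1140 sites.

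Within the ATAC2 libraries, WT with acetate over WT untreated 4 had a median fold of 1.49 at these sites, against 1.52 over WT untreated 1 and 2. WT untreated 4 itself was 1.02 times WT untreated 1 and 2 at the median site and above them at 1711 sites (53.4%). Over all sites the corresponding medians were 0.931, 1.01 and 1.048. The rule holds WT untreated 4 under every acetate library, so its place under them is fixed by the choice of sites. The part of the prefix in these values was not tested. The rule leaned on that library: without it, 5593 sites passed.

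At the edge of the rule the ratio was 1.00 on both sides. Just inside were a site near Vrk2, where the lowest acetate value was 0.543 and the highest untreated value 0.542, one inside Tmem161a (0.394 in both, before rounding) and one with no gene within 50 kb. Just outside, with equal values, were sites that included those at Inhba and Snapc3.

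Sites are named by the protein-coding gene whose body lies nearest within 50 kb, which does not show that they regulate it. The widest gap among sites at or above the median signal was at chr5:53437028-53437228, with no gene within 50 kb, where the relative signal was 0.380, 0.525 and 0.364 in untreated KO, 0.850, 0.884 and 0.946 in untreated WT, 2.05 and 2.17 in KO with acetate and 2.42 and 2.03 in WT with acetate. The acetate libraries of both genotypes lay together, and untreated KO lay under untreated WT. A site inside Ciapin1, a gene of cytosolic iron-sulfur cluster assembly (chr8:94835025-94835225), had 0.566, 0.624 and 0.838 in untreated KO, 0.732, 0.852 and 0.721 in untreated WT, 1.69 and 1.73 in KO with acetate and 1.63 and 1.81 in WT with acetate. Here the untreated genotypes overlapped, and the gap to the acetate libraries was as clear in KO as in WT.

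Sh2d2a encodes the T cell-specific adaptor protein, which binds LCK after receptor stimulation. The site inside it (chr3:87849208-87849408) had 1.07, 1.05 and 1.08 in untreated KO, 1.25, 1.15 and 1.24 in untreated WT, 2.22 and 2.27 in KO with acetate and 2.77 and 2.25 in WT with acetate, so the acetate libraries were about even in the genotypes and the untreated ones nearly so. Gfi1 encodes a transcriptional repressor of T helper cells, and the site chr5:107727933-107728133 had 0.566, 0.832 and 0.788 in untreated KO, 0.941, 0.987 and 0.891 in untreated WT, 1.76 and 1.77 in KO with acetate and 1.82 and 1.79 in WT with acetate. Other sites among the 10 of widest gap were at Hs2st1, Pkp3, Fndc1 and Plekhf1 and at 1 more place without a gene near, with folds of 2.54 to 3.096 in KO and 2.04 to 2.56 in WT. Of the largest folds, those near Cmip (4.42-fold in KO and 2.68-fold in WT), Dnajc11 (4.40-fold in KO and 2.26-fold in WT), Lzts1 (3.78-fold in KO and 2.06-fold in WT) and Hsp90aa1 (4.64-fold in KO and 2.14-fold in WT) were all larger in KO, and the Fbxw11 site was about even (2.85-fold in KO and 2.74-fold in WT). At Hsp90aa1, which encodes an HSP90 chaperone, WT untreated 4 reached 1.40, just under the lowest acetate library.

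**Figure D2:**
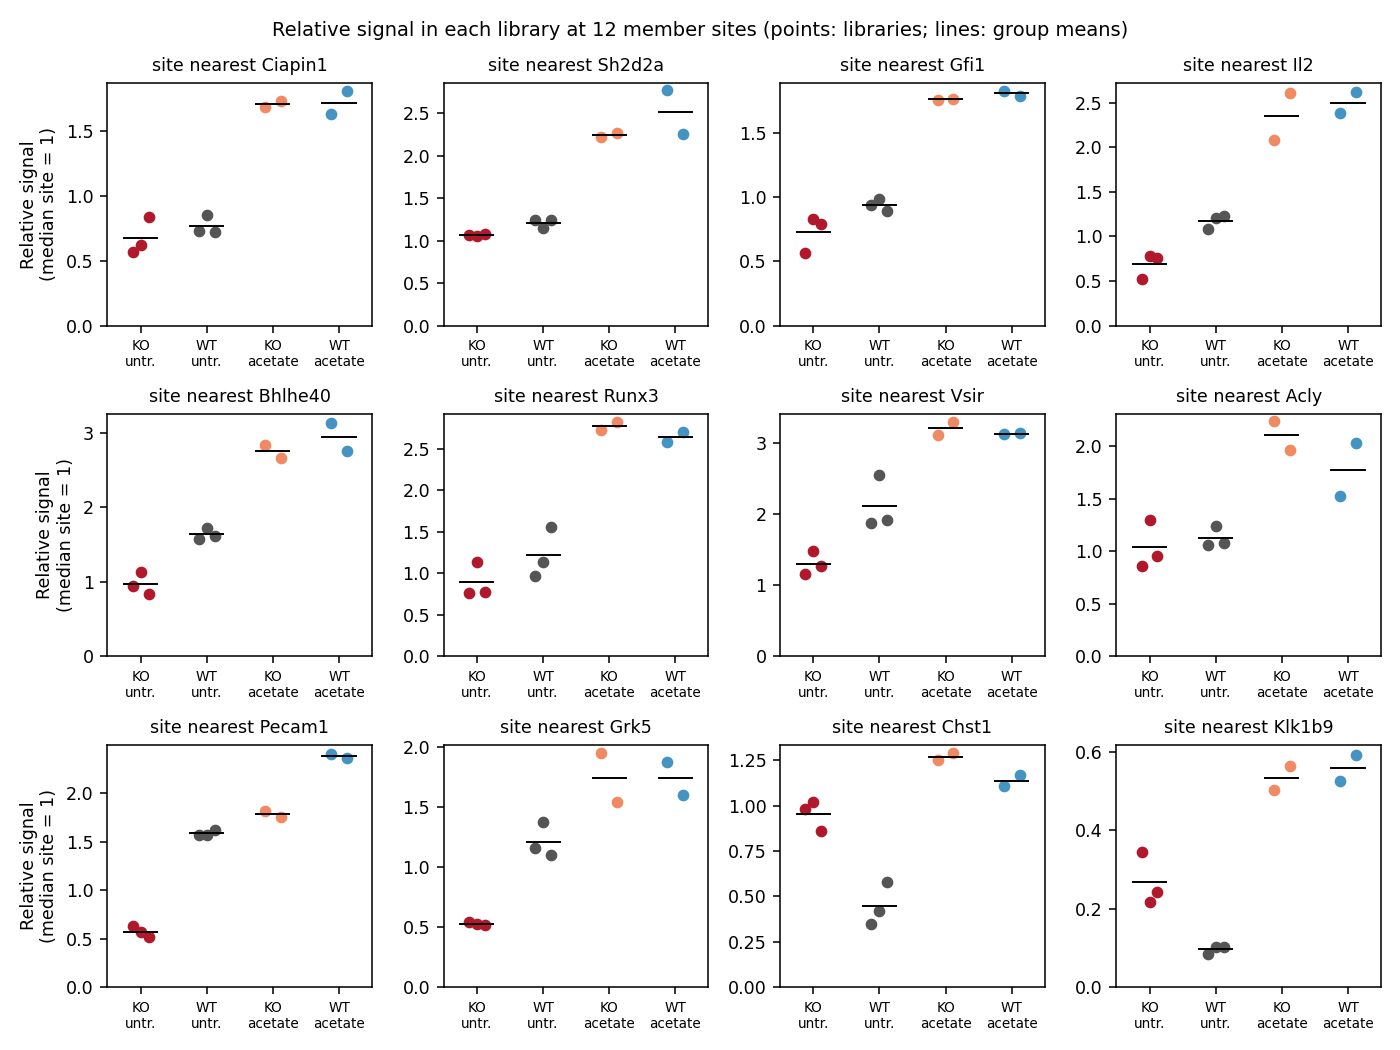
Relative signal (library's median site = 1) in each library at 12 of the sites, named by nearest gene; points are libraries and lines are group means. At Il2, Pecam1 and Grk5 the untreated KO points lie below the untreated WT points, at Chst1 and Klk1b9 above them, and the acetate points of the genotypes lie close together at most of the 12.

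Genes of T cell receptor signalling and activation had 287 sites, of which 39 (13.6%), at 16 genes, were higher with acetate, against 8.09% of all nuclear sites. Of the 287, 26 (9.06%) were lower with acetate, against 9.27% of all nuclear sites. No list was tested, and the lists were drawn up with earlier results of these data known. Il2 encodes the T cell growth factor interleukin-2, and the site chr3:37157120-37157320 had 0.518, 0.782 and 0.758 in untreated KO, 1.08, 1.21 and 1.23 in untreated WT, 2.09 and 2.61 in KO with acetate and 2.39 and 2.62 in WT with acetate. The groups were ordered untreated KO, untreated WT, acetate, with no overlap between them. Inside Cd247, the gene of the receptor's ζ chain, the one of largest fold among 5 such sites of 23 (chr1:165819862-165820062) was low, at 0.0482, 0.0693 and 0.0505 in untreated KO, 0.137, 0.123 and 0.245 in untreated WT, 0.450 and 0.277 in KO with acetate and 0.474 and 0.395 in WT with acetate. It went from near absent in untreated KO to between 0.277 and 0.474 with acetate. A site at Nr4a1, an immediate early gene of receptor signalling, was 4.34-fold in KO and 1.88-fold in WT higher with acetate, and 1 in Nfatc1, which encodes an NFAT factor, 2.91-fold in KO and 1.86-fold in WT. Nfatc1 had 6 such sites among 18 and Cblb, a ubiquitin ligase gene that restrains receptor signalling, 6 among 21.

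Genes of the Th1 and Th2 programmes had 116 sites, of which 19 (16.4%) were higher with acetate and 7 lower. Near Runx3, which encodes a factor of Th1 and CD8 T cells, the site chr4:135114481-135114681 had 0.759, 1.14 and 0.778 in untreated KO, 0.967, 1.14 and 1.56 in untreated WT, 2.73 and 2.82 in KO with acetate and 2.58 and 2.70 in WT with acetate. WT untreated 4 was the highest untreated library there and still well below the acetate libraries. A second Gfi1 site (chr5:107728832-107729032) had the largest fold of the list (5.23-fold in KO and 3.33-fold in WT), at low signal. Folds at Cxcr3, a chemokine receptor gene of Th1 cells, were 4.28 in KO and 2.18 in WT, and in Stat4, which carries the interleukin-12 signal, 2.47 and 1.92.

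Th17 programme genes had 199 sites, and 20 (10.05%) at 10 genes were higher with acetate against 23 (11.6%) lower. Near Bhlhe40, which encodes a factor that cytokine-producing T helper cells need, the site chr6:108668290-108668490 had 0.940, 1.13 and 0.838 in untreated KO, 1.58, 1.73 and 1.61 in untreated WT, 2.83 and 2.67 in KO with acetate and 3.14 and 2.76 in WT with acetate. The lowest acetate value was 2.67 and the highest untreated value 1.73, with untreated KO lowest. The site of Il21, which encodes a Th17 cytokine, was 2.60-fold in KO and 1.61-fold in WT higher with acetate. The site chr1:20737033-20737233 near Il17a, the signature cytokine gene, had 0.404, 0.198 and 0.293 in untreated KO, 0.471, 0.574 and 0.354 in untreated WT, 0.733 and 0.670 in KO with acetate and 0.614 and 0.691 in WT with acetate, and the untreated genotypes overlapped. Of the 11 sites nearest Il17a or Il17f, 2 were among those higher with acetate, and of 8 sites nearest Cd4, 1. At Lif, a gene for an interleukin-6 family cytokine, the folds were 2.99 and 2.70, and at Rora, which encodes a nuclear receptor of Th17 cells, 3.02 and 1.30 at a signal of at most 0.277 in any library.

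AP-1 factor genes had 136 sites, with 13 (9.56%) higher and 13 lower with acetate. The largest fold was near Fosb (3.06-fold in KO and 2.31-fold in WT), and the list also holds Bach2, which encodes a repressor at AP-1 sites (2.53-fold in KO and 1.71-fold in WT). Genes of inhibitory receptors had 81 sites, with 9 (11.1%) higher and 10 (12.3%) lower with acetate. The Lag3 site had 1.43, 1.84 and 1.34 in untreated KO, 1.70, 1.68 and 3.07 in untreated WT, 4.54 and 3.55 in KO with acetate and 4.42 and 3.97 in WT with acetate, with WT untreated 4 well above the other untreated libraries, and the site in Vsir, which encodes the checkpoint protein VISTA, had 1.15, 1.49 and 1.27 in untreated KO, 1.88, 2.55 and 1.92 in untreated WT, 3.105 and 3.30 in KO with acetate and 3.12 and 3.13 in WT with acetate. Shares near or under 8.09% were found for naive and memory genes (21 of 320, 6.56%), regulatory T cell genes (5 of 90, 5.56%), cytokine signalling genes (7 of 118, 5.93%) and TGF-β and SMAD genes (3 of 135, 2.22%). In these 4 lists more sites were lower than higher with acetate: 43, 16, 19 and 19. The regulatory T cell sites were near Entpd1, Il10, Foxo1 and Il2ra and 1 more gene, and the site near Il2ra, the gene of the interleukin-2 receptor α chain, had 1.49, 1.40 and 1.42 in untreated KO, 1.92, 1.97 and 1.77 in untreated WT, 2.85 and 2.37 in KO with acetate and 2.86 and 2.56 in WT with acetate.

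Genes that take up acetate or make and use acetyl-CoA had 66 sites, of which 10 (15.2%) at 7 genes were higher and 8 (12.1%) lower with acetate. The site chr11:100531325-100531525 near Acly, which encodes ATP citrate lyase, had 0.861, 1.30 and 0.960 in untreated KO, 1.07, 1.25 and 1.08 in untreated WT, 2.24 and 1.97 in KO with acetate and 1.53 and 2.03 in WT with acetate. The untreated genotypes overlapped there, and 1 WT acetate library lay closer to them than the others. Low sites near Slc16a1, a monocarboxylate carrier gene (2.38-fold in KO and 1.46-fold in WT), Scd2, a fatty acid desaturase gene (2.52-fold in KO and 1.87-fold in WT), and Srebf2, the regulator of sterol synthesis (1.98-fold in KO and 1.65-fold in WT), were also in the set. Pyruvate dehydrogenase and TCA cycle genes had 3 of 71 (4.23%) higher and 11 (15.5%) lower with acetate. The 3 were near Pdhx and Pdp1 of the dehydrogenase complex and its phosphatase and near Mdh1. Glycolysis genes had 8 of 88 (9.09%) higher and 6 (6.82%) lower. Of the glycolysis sites, the one inside Hif1a, which encodes the hypoxia factor that drives glycolytic genes, had 0.572, 0.535 and 0.475 in untreated KO, 0.797, 0.813 and 0.878 in untreated WT, 1.19 and 1.21 in KO with acetate and 1.47 and 1.26 in WT with acetate, and the one inside Hk1, which encodes a hexokinase, was 4.87-fold in KO and 2.26-fold in WT higher with acetate.

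Histone acetyltransferase and acetyl-reader genes had 4 of 71 sites (5.63%) in the set, among them sites inside Brdt, Ncoa2 and Ncoa3, and deacetylase and sirtuin genes 9 of 103 (8.74%). The rule turned round took 6 (8.45%) and 8 (7.77%) of the sites of these lists. The site inside Hdac1, which encodes a class I deacetylase, had 0.590, 0.624 and 0.606 in untreated KO, 0.856, 0.961 and 1.06 in untreated WT, 1.30 and 1.15 in KO with acetate and 1.68 and 1.31 in WT with acetate. Untreated KO was the lowest group there, and untreated WT lay under acetate. Stress response and amino acid genes had 5 of 53 (9.43%), cell cycle genes 5 of 78 (6.41%) and interferon response genes 2 of 48 (4.17%). Turned round, the rule took 2 (3.77%), 7 (8.97%) and 7 (14.6%) of their sites. The site in Slc7a1, a carrier gene for cationic amino acids, was 3.18-fold in KO and 1.47-fold in WT higher with acetate, and that near Ccne1, which encodes cyclin E1, 4.48-fold in KO and 1.64-fold in WT. Over all 23 lists, 303 of 358 genes had a site, and 181 of their 1954 sites were in the set.

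Among markers, 6 of 64 sites of T and Th17 cell genes (9.38%) were higher with acetate, near Il17a, Cd4, Cd3e and Cd28, and 9 of the 10 marker genes had a site. Summed over the sites of this list, the relative signal was 123 to 133 in untreated KO, 90.6 to 101 in untreated WT, 120.2 to 128 in KO with acetate and 90.5 to 95.8 in WT with acetate. KO thus lay above WT in this sum both without and with acetate. The sum was not split by gene and does not show which genes carried the difference. The list includes Cd4 and the KO cells carried CD4 Cre, and the part of that in the sum was not tested. Markers of other cell types gave 1 of 4 sites for CD8 T cells (Eomes), 1 of 17 for B cells (Ebf1), 2 of 8 for NK cells (Klrb1c), 1 of 8 for gamma-delta T cells (Sox13) and 0 of 5 for myeloid cells. The sum of the NK list was 11.2 to 12.8 in untreated KO, 11.04 to 15.4 in untreated WT and 13.9 to 14.9 with acetate. That of the CD8 list was 3.11 to 3.16, 3.36 to 3.796 and 3.42 to 4.13. For the B cell list these ranges were 12.2 to 13.9, 9.58 to 10.3 and 9.73 to 10.3, and for the myeloid list 9.75 to 10.2, 9.69 to 9.97 and 8.78 to 10.3. The gamma-delta sums were 6.68 to 7.27, 4.97 to 5.61 and 4.04 to 4.93. The part of other cell types in the differences was not tested, and in bulk libraries a change in the share of a cell type and a change within the cells cannot be told apart.

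The genotype comparisons were not read by the rule, but the rule caps the untreated values of both genotypes. Sites that are high in either untreated group are unlikely to qualify, and by the rule turned round those low in either group are. Counts over the set are therefore a description. Without acetate, the KO mean was below the WT mean at 2946 of the 3207 sites (91.9%), against 64.6% of all sites and 43.1% of the sites lower with acetate. All 3 untreated KO libraries lay below all 3 untreated WT libraries at 1259 sites (39.3%, against 15.2% of all sites). By limma, 530 sites of the set were called lower in untreated KO, 16.5% of the set against 4.72% of all sites, and 4 were called higher, 0.125% against 9.35% of all sites. The median log2 difference was -0.32, against -0.09 over all sites. Of the 1870 sites called lower in untreated KO anywhere, 530 (28.3%) were in the set, and of the 3708 called higher, 4 (0.108%). Within the ATAC1 libraries, 663 sites of the set were called lower and 5 higher, where the share of all sites rose to 11.5% lower and 11.6% higher. Without KO untreated 1, 340 of the set and 1263 of all sites were called lower, and without KO untreated 3, 305 and 931. The untreated KO libraries are also those with the highest mitochondrial share of reads, and the part of that in the difference was not tested. The counts depended on the scaling. In the values as deposited, where the median of all sites was -0.84, 3197 sites of the set were called lower and 2 higher, and so were 89.6% and 9.07% of all sites. With cyclic loess 251 were called lower and 4 higher, against 2.41% and 9.35% of all sites. The median of the set minus that of all sites moved little, from -0.23 in the main scaling to -0.23 as deposited and -0.19 with cyclic loess.

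With acetate, the difference between the genotypes was small at these sites. The median log2 difference, KO minus WT, was -0.04 (0.00 over all sites). The KO mean was below the WT mean at 1906 sites (59.4%, against 49.8% of all sites). Both KO acetate libraries lay below both WT acetate libraries at 781 sites (24.4%, against 15.8% of all sites). They lay above both at 368 sites (11.5%, against 13.8% of all sites). By limma no site of the set was called in either direction, against 0.0227% of all sites called higher (9 sites) and 0% lower. At an unadjusted p under 0.05 there were 35 of the 3207, and 863 of the 39657. No other tool was run, and the absence of calls does not show that the genotypes were alike.

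**Figure D3:**
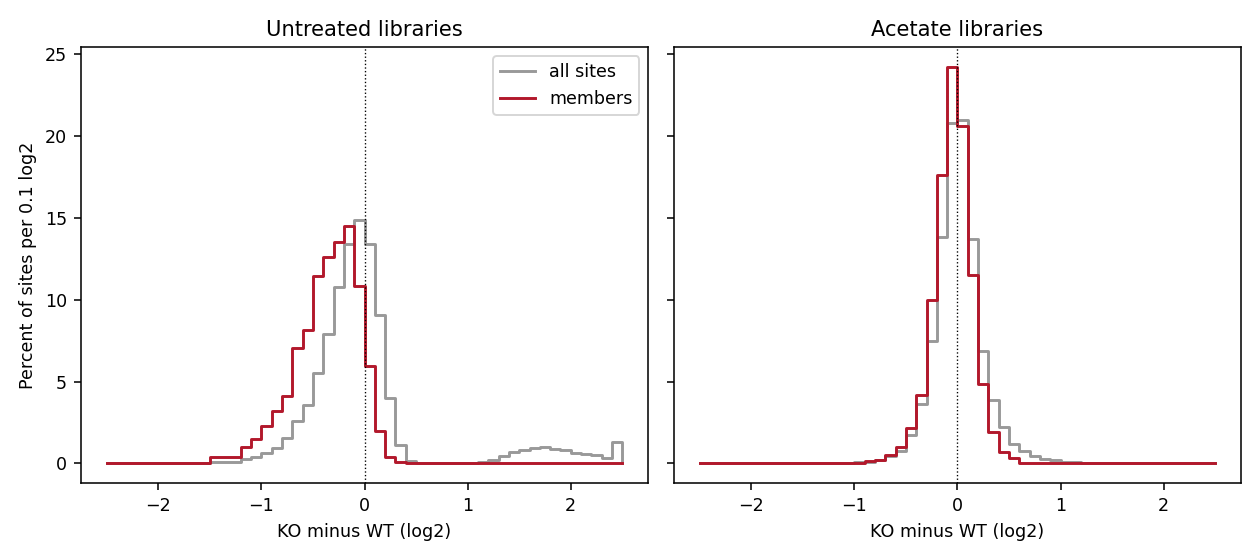
Distribution of the log2 difference KO minus WT, as percent of sites per 0.1 log2, in the untreated (left) and the acetate libraries (right), for the 3207 sites higher with acetate (red) and all 39657 sites (grey); values beyond the axis are drawn in the outermost bins. The red line is centred at -0.32 without acetate and at -0.04 with acetate, and in the untreated panel it lacks the grey shoulder above 1.

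The 5 sites of the set with the smallest adjusted p for a lower signal in untreated KO were inside Pecam1, in Gm10277, inside Nsmce2 and at 2 places without a gene within 50 kb. Pecam1 encodes the adhesion receptor CD31, and its site (chr11:106688428-106688628) had 0.633, 0.574 and 0.515 in untreated KO, 1.57, 1.57 and 1.62 in untreated WT, 1.81 and 1.76 in KO with acetate and 2.40 and 2.36 in WT with acetate. KO minus WT was log2 -1.46 ± 0.14 (SE), adjusted p = 3.7e-06 by limma without acetate, and WT stayed above KO with acetate. The site chr13:32428580-32428780 had 0.193, 0.188 and 0.182 in untreated KO, 0.654, 0.710 and 0.633 in untreated WT, 1.03 and 1.29 in KO with acetate and 1.21 and 1.44 in WT with acetate. Its untreated difference was log2 -1.79 ± 0.17 (SE), adjusted p = 4.3e-06 by limma, and the acetate libraries of the genotypes overlapped. At chr17:52156653-52156853 the untreated difference was log2 -1.49 ± 0.17 (SE), adjusted p = 9.4e-06 by limma, and KO remained under WT with acetate (1.23 and 1.29 against 1.91 and 1.97). Gm10277 gave log2 -1.33 ± 0.16 and Nsmce2, which encodes a SUMO ligase of the SMC5/6 complex, -1.12 ± 0.14.

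Sites of the listed genes that were called lower in untreated KO included those near Bhlhe40 (log2 -0.77 ± 0.14), Il2 (-0.79 ± 0.17), Vsir (-0.69 ± 0.15), Hif1a (-0.65 ± 0.15) and Slc7a1 (-1.38 ± 0.21). By list, against 16.5% of the whole set and 4.72% of all sites, 7 of the 39 receptor signalling sites, 6 of 20 Th17 sites, 1 of 19 Th1 and Th2 sites, 5 of 5 cell cycle sites, 4 of 9 deacetylase sites and 0 of 10 acetyl-CoA sites were called in that direction. So were 3 of 21 naive and memory sites, 3 of 9 of inhibitory receptors, 2 of 13 of AP-1 factors, 2 of 7 of cytokine signalling and 2 of 4 of acetyltransferases and readers. The regulatory T cell, TGF-β, glycolysis and stress lists had 1 each, and the dehydrogenase and interferon lists 0.

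The 4 sites of the set called higher in untreated KO were near Chst1, Ksr2 and Klk1b9 and at chr14:102184769-102184969, with no gene within 50 kb. Chst1 encodes a carbohydrate sulfotransferase, and its site had 0.982, 1.02 and 0.859 in untreated KO, 0.346, 0.419 and 0.578 in untreated WT, 1.25 and 1.29 in KO with acetate and 1.11 and 1.17 in WT with acetate. KO was between WT and the acetate libraries, with log2 1.11 ± 0.18 for KO minus WT (limma, adjusted p = 0.00026). The Klk1b9 start, a kallikrein family protease gene whose stretch is printed among the promoters, had 0.343, 0.218 and 0.242 in untreated KO, 0.0850, 0.103 and 0.102 in untreated WT, 0.503 and 0.564 in KO with acetate and 0.526 and 0.592 in WT with acetate, and its untreated difference was log2 1.39 ± 0.25. At Ksr2, a kinase scaffold gene, it was log2 1.09 ± 0.23, and at the site without a gene 1.46 ± 0.32.

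The interaction asks whether the acetate difference itself differed between the genotypes. It shares its untreated libraries with the comparison above, and the rule read all 10 libraries it uses. The rule holds the untreated libraries of both genotypes under acetate, so sites that are high in either untreated group are unlikely to qualify. The counts are a description and no test of the set. The difference was larger in KO at 2714 sites of the set (84.6%), with a median excess of 0.29 on the log2 scale. Over all sites the interaction was positive at 59.7%, with a median of 0.08. By limma, 33 sites of the set were called with a larger difference in KO, and 1 with a larger difference in WT. Over all sites 107 interactions were called positive (0.27%) and 2508 negative (6.32%). Outside the set, a negative interaction can also mean that the signal fell more with acetate in KO than in WT. In the set, the number called with a larger difference in KO depended on single libraries. It was 111 without WT untreated 4, 21 without WT untreated 1, 17 without KO untreated 2 and 11 without KO untreated 3. Without an acetate library it was 7 (WT acetate 1), 9 (WT acetate 2), 4 (KO acetate 1) or 12 (KO acetate 3). Over all sites, leaving out 1 library gave 13 to 581 positive interactions. The acetate libraries all have the ATAC2 prefix and the untreated KO libraries all ATAC1, and for the interaction the prefix cannot be told apart from acetate in KO.

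The largest called excess in KO was at chr13:32428580-32428780, where the mean was 5.95-fold in KO and 1.98-fold in WT higher with acetate, an interaction of log2 1.59 ± 0.27 (SE). Grk5 encodes a kinase that desensitises G protein-coupled receptors, and its site (chr19:60946152-60946352) had 0.542, 0.525 and 0.515 in untreated KO, 1.16, 1.37 and 1.10 in untreated WT, 1.95 and 1.54 in KO with acetate and 1.88 and 1.60 in WT with acetate. The untreated genotypes were far apart and the acetate libraries overlapped, with an interaction of log2 1.19 ± 0.24. A site within 50 kb of Cd2, which encodes a T cell adhesion receptor, had 0.229, 0.218 and 0.182 in untreated KO, 0.536, 0.516 and 0.673 in untreated WT, 0.728 and 0.989 in KO with acetate and 0.772 and 0.914 in WT with acetate and an interaction of log2 1.44 ± 0.32. Pecam1 (1.04 ± 0.22) and Gm10277 (1.12 ± 0.26) were also called. At the Klk1b9 start the acetate fold was 2.00 in KO and 5.47 in WT, an interaction of log2 -1.45 ± 0.39 and the only one called in that direction. The untreated WT libraries had 13, 16 and 15 reads there, and the interaction was not called in 9 of 17 alternative analyses.

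**Figure D4:**
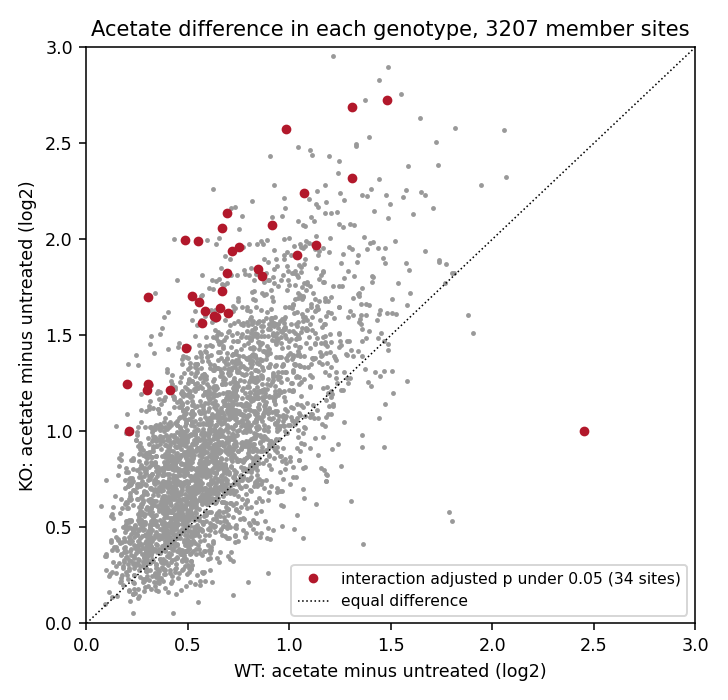
Log2 difference, acetate minus untreated, in WT (horizontal) and KO (vertical) at each of the 3207 sites; the dotted line marks equal differences and red points are the 34 sites called for the interaction. Most points (84.6%) lie above the line, and the only red point below it is the Klk1b9 start.

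Compared with the table as a whole, the sites were weaker in the mean over the 10 libraries and lay further from genes. The rule holds the 6 untreated libraries of that mean under the acetate libraries, and the rule turned round holds them above. With acetate the set was level with all sites. The median group mean was then 0.984 in KO and 1.02 in WT, against 1.00 in each over all sites. Without acetate it was 0.503 in KO and 0.642 in WT, against 1.00 and 1.01. The shares by quintile have the same limit. The median of the mean relative signal over the 10 libraries was 0.749, against 1.00 for all sites and 1.19 for the sites lower with acetate. By quintiles of that mean, the rule took 10.0, 10.3, 10.3, 7.41 and 2.35% of sites from the weakest to the strongest, whereas the share lower with acetate went from 5.66 to 10.7%. Within 1 kb of either end of a gene lay 9.11% of the set (292 sites), against 24.8% of all sites and 15.7% of those lower with acetate. Inside genes lay 45.7% (42.4% of all sites), between genes but within 50 kb 32.3% (24.8%), and further away 12.8% (8.09%). The low share at gene ends was also found at like signal: it was 6.78% against 9.73% of all sites in the weakest quintile and 16.1% against 52.6% in the strongest. The median distance to a gene start was 15.3 kb, against 10.3 kb for all sites and 13.7 kb for those lower with acetate, and 79 sites (2.46%) overlapped a start, against 11.99% of all sites.

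**Figure D5:**
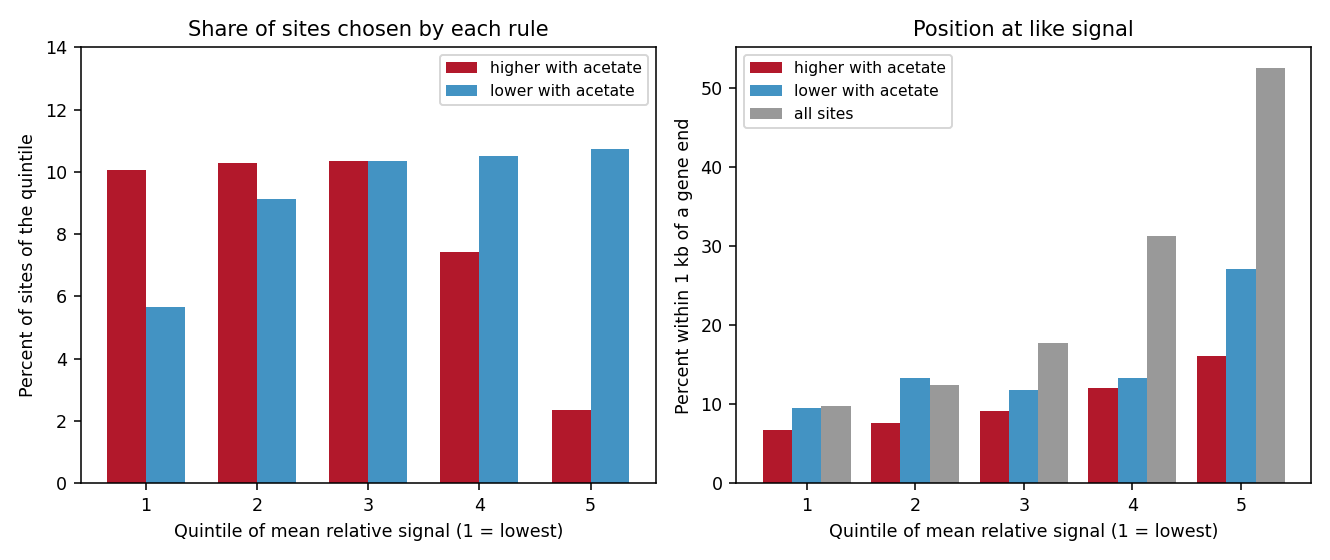
Left, percent of the sites in each quintile of mean relative signal (1 = weakest) that were higher (red) or lower (blue) with acetate; right, percent of sites within 1 kb of a gene end in each quintile, with all sites in grey. Red bars fall to 2.35% in the strongest quintile on the left and are the lowest of the 3 in every quintile on the right.

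The strongest sites of the set had small folds. The strongest 10 lay between Dglucy (4.53, 5.83 and 5.09 in untreated KO, 4.94, 5.51 and 5.56 in untreated WT, 6.95 and 6.15 in KO with acetate and 6.26 and 6.28 in WT with acetate) and Dusp16, with folds of 1.16 to 1.42 in either genotype. They included the start of Ccr8, which encodes a chemokine receptor of Th2 and regulatory T cells, at 4.07, 4.70 and 3.596 in untreated KO, 3.804, 4.41 and 4.18 in untreated WT, 4.96 and 4.94 in KO with acetate and 5.05 and 5.10 in WT with acetate, and a site at Itga4, the gene of integrin α4. The acetate values exceeded the untreated ones there by no more than 1.15 times at the nearest. At gene ends, the largest folds were at Rpl34 (4.49-fold in KO and 3.27-fold in WT), Klk1b9, Kcnh2 (5.40-fold in KO and 1.87-fold in WT), Cxcr3 and Nr4a1, all at signal under 1.

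The 2796 sites with a gene near were spread over 2025 genes, of which 1533 had a single one and 29 had 5 or more. Picked by that count, Hpcal1, a neuronal calcium sensor family gene, had 8 of its 20 sites in the set, Lmtk3 7 of 10, Farp1 7 of 14, Sik3, which encodes a salt-inducible kinase, 7 of 22, and Itpripl2 6 of 6. Hivep3 (7 of 27), Nfkb1, which encodes the NF-κB subunit p105 and p50 (5 of 28), and Foxp1 (5 of 51) had more sites outside the set. Sites next to each other can share an enhancer and are not independent. In the order of the table, 293 sites stood in 82 unbroken runs of 3 or more, the longest 2 of 7 sites. One run covered chr7:118448547-118492136 from Syt17 to Itpripl2, with folds of 1.34 to 3.52, and its site of largest fold had 0.0783, 0.158 and 0.0909 in untreated KO, 0.157, 0.187 and 0.116 in untreated WT, 0.387 and 0.426 in KO with acetate and 0.474 and 0.567 in WT with acetate. At that site the highest untreated value was 0.187. The other covered chr12:8772841-8861172 around Sdc1, which encodes the plasma cell and epithelial proteoglycan CD138, with folds of 1.53 to 3.15, and its site of largest fold had 0.0904, 0.238 and 0.131 in untreated KO, 0.229, 0.290 and 0.313 in untreated WT, 0.838 and 0.532 in KO with acetate and 0.737 and 0.506 in WT with acetate. Runs of 6 lay inside Farp1, from Znhit6 to Ccn1, near Trib1 and from Pik3r5 to Myh10. By chromosome the share of sites in the set ran from 6.66% (chromosome 19) to 9.003% (chromosome 10) among the autosomes and was 7.5% on X.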

How the data were processed

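ATAC-seq signal was analysed in 10 libraries of mouse Th17 cells in 4 groups. The deposited table holds 1 value of signal per library at 39657 sites on GRCm38, per the submitters' processing notes. These name BWA 0.7.16a, Genrich, Picard 2.10.9 and DiffBind 3.6.1 among the tools. How the authors scaled the signal is unknown here. At a tolerance of 0.001, 100% of the values of each library were whole multiples of 1 step, and the reads behind them were taken from that step to give the depth (3500172 to 13356560 reads in sites per library).

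Values were divided by the library's median over sites, multiplied by the mean of the 10 medians and taken as log2(value + 1). Limma 3.58.1 (trend, robust) in R 4.3.3 fitted 4 group means to all 10 libraries with no block. Benjamini-Hochberg adjustment ran over 39657 sites, with calls under an adjusted p of 0.05 and SE from the fit. The planned count test was not used because the values are normalized. Untreated replicate numbers 1 and 2 occur in both genotypes, and the differences between them correlated with r = 0.19 across sites over 2 pairs; no label says that a number pairs libraries. The script was tested on simulated data.

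Sites were placed by the RefSeq gene table of GRCm38.p6, which holds no strand. They were named by the nearest protein-coding gene within 50 kb, 1 site per gene: the 10 with the widest gap and the 10 with the largest fold (both at or above the median signal), the 10 strongest, up to 4 per gene list by fold, up to 5 per direction in each genotype test by adjusted p, those at the rule's edge, the longest runs, and the 5 largest folds at gene ends. The sites, the 23 lists and the motifs were chosen with earlier results of these data known. Alternatives were other scalings, pseudocounts of 0.5 and 5, a minimum mean scaled signal of 20, libraries left out, 1 prefix only and a replicate block. Python 3.11.15, numpy 2.4.6, pandas 2.3.3 and matplotlib 3.10.9 made the tables and figures. Reads behind a site carry no molecular identifiers. Open chromatin beyond the table was not analysed here, and sequence on chromosome 18 was not printed. A few sites that these rules name are not reported here.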

Additional observations from a re-analysis of the deposited data

Results flagged for a closer look

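The difference between acetate and untreated libraries was tested for a difference between the genotypes with the interaction term of the limma model. Of the sites higher with acetate, 33 had a larger difference in KO and 1 had a larger difference in WT (adjusted p under 0.05). The rule read the libraries of this term and makes sites that are high in either untreated group unlikely to qualify. The split is therefore a description of the chosen sites and no test of them. Over all sites 107 interactions were called positive and 2508 negative, and a negative one can also mean a larger fall with acetate in KO. The log2 interaction was 1.59 at the site with no gene within 50 kb on chromosome 13 (start 32428580), 1.19 at Grk5, 1.04 at Pecam1, 1.44 at Cd2 and 1.12 at Gm10277, each with the larger difference in KO. At the Klk1b9 start it was -1.45, with the larger difference in WT. The prefix of the column names differs between the acetate and the untreated KO libraries, and its part in these values cannot be told apart from that of acetate.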

How the results depend on the processing

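The genotype calls depended on the scaling. In the signal as deposited, the median of all sites in untreated KO minus WT moved to -0.84 and that of the interaction to 0.67 (log2). With it, 2 sites of the set were called higher and 3197 lower in untreated KO (9.07 and 89.6% of all sites). In the set 1101 interactions were called positive and 0 negative (19.5 and 3.61% of all sites), and the median acetate difference in KO was 1.502. Cyclic loess gave 251 lower in untreated KO, 18 interactions larger in KO and 3 in WT, and a median acetate difference in KO of 0.79. Median-of-ratios factors gave 3 interactions larger in WT, total signal 0 with a median acetate difference in KO of 1.00, and a pseudocount of 5 gave 2. With the replicate block (numbers 1 and 2, 2 pairs with r = 0.19) 8 sites were called higher and 679 lower in untreated KO. A block could not be fitted for the acetate libraries, which share only the number 1, and no interaction could be fitted within 1 prefix. The edgeR test on recovered reads was not run: a stricter check did not accept the recovery of whole reads in 5 columns, so the reads given here serve for depth only.

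The set itself had 1056 sites with a ratio of at least 1.2, and 10456 by the ATAC2 libraries alone. Scaled otherwise, the rule took 2140 sites as deposited (1835 shared, 57.2% of the set and 85.7% of the 2140), 3501 with median-of-ratios factors (3058 shared, 95.4 and 87.3%), 3393 with cyclic loess (2803 shared, 87.4 and 82.6%) and 3836 with total signal (3007 shared, 93.8 and 78.4%). With 1 library left out at a time it took 3223 to 5593. Over the same settings 305 to 686 sites were called lower and 4 to 6 higher in untreated KO, 0 in either direction with acetate, and 4 to 111 interactions were larger in KO and 0 to 4 in WT. At the sites named for a genotype test, 256 of 273 pairs of site and setting kept the call, 17 lost it and 0 turned direction. Those sites were picked by smallest adjusted p in the main fit, and the settings reuse its libraries. The count does not show how the other calls held. Of the 17 losses, 9 were the interaction at Klk1b9. Depth limits the weakest sites most, such as Klk1b9 with 13 to 16 reads in untreated WT.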
